A study of Mus musculus with 25 samples.

Results

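H3K9me3 peaks that lay in introns on chromosomes 1 to 19 were examined in regenerating mouse myofibers. Members were the rows of the 12 H3K9me3 peak lists on those chromosomes whose deposited annotation begins with Intron, leaving out genes whose names begin with Zfp, Olfr or Vmn. They numbered 2600 of 20998 H3K9me3 peaks, and of 17669 on autosomes. The name filter had removed 661 of 3261 autosomal intron peaks. The rule used position and annotation alone, and the members fell in introns of 1063 genes.

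Chromatin came from Dendra2+ myofibers of the tibialis anterior at 14 days post injury (dpi), in wild-type, mfn2-/-, vhl-/- and HIF1dPA mice with 3 libraries each. All groups carried a mito-Dendra2 reporter under a Pax7-Cre(ERT2) driver, received tamoxifen at 75 mg/kg for 5 days, and were injured 2 days later with 50 µL of 1.2% BaCl2. The Cre acts in muscle stem cells, so the alleles were changed in their progeny and not in other cells of the muscle. The labels do not name the floxed or knock-in alleles further and give no strain, age or sex, so genotype and background cannot be told apart. Mfn2 encodes mitofusin 2, which fuses outer mitochondrial membranes, Vhl encodes a ubiquitin ligase subunit through which HIF1α is degraded, and HIF1dPA is a form of HIF1α that escapes it. No list held an intron peak in either targeted gene.

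H3K9me3 is a mark of heterochromatin, laid down by SETDB1, SUV39H and related enzymes and read by HP1 proteins. In gene-rich chromatin it is best known for silencing retroelements, many of which lie in introns, and the clusters of zinc finger and chemosensory receptor genes that the rule leaves out. A peak of this mark in an intron therefore need not mark the host gene's own promoter. The lists hold no read depth, so a peak that is missing from a list was not called there, and its level is unknown. The deposited score is −10 times the log10 of the caller's p-value, it grows with depth, and it served here to rank peaks within a list. Lists held 780 to 2407 autosomal peaks, and rank 1 is the strongest of these.

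Intron peaks were more numerous in wild-type lists than in any mutant list. Wild-type lists held 347, 357 and 339 intron peaks. The mfn2-/- lists held 191, 157 and 272, the vhl-/- lists 105, 135 and 156, and the HIF1dPA lists 196, 203 and 142. All 9 mutant lists lay below all 3 wild-type lists, and the ratio of the geometric mean in mutants to that in wild-type was 0.481 (two-sided exact permutation p = 0.00455, the smallest that 3 against 9 allows; Benjamini-Hochberg adjusted p = 0.0148 over 13 tests). For mfn2-/- alone it was 0.579, with 0.375 for vhl-/- and 0.512 for HIF1dPA. All of these had an exact p of 0.1, below which 3 against 3 cannot go. Number also varied with genotype over all 4 groups (exact permutation p = 0.00279, adjusted p = 0.0121). The lists as a whole were shorter in mutants too. With the 780 strongest peaks of every list the ratio of mutants to wild-type was 0.956 (exact p = 0.841), 1.46 for mfn2-/-, 0.744 for vhl-/- and 0.805 for HIF1dPA.

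Introns took a different part of the list in each genotype. Of the autosomal peaks, 15.9%, 14.8% and 15.1% were intron members in wild-type lists. The share was 18.8%, 20.1% and 20.8% in mfn2-/- lists, 10.1%, 12.0% and 11.9% in vhl-/- lists, and 12.7%, 12.8% and 12.4% in HIF1dPA lists. No mutant genotype overlapped wild-type, and the direction was not shared: mfn2-/- lists lay above wild-type, vhl-/- and HIF1dPA lists below. Intron share separated the 4 genotypes (exact permutation p = 6.49e-05, the smallest that the design allows; adjusted p = 0.000844). The means were 15.3% ± 0.576 (wild-type), 19.9% ± 1.01 (mfn2-/-), 11.3% ± 1.07 (vhl-/-) and 12.6% ± 0.178 (HIF1dPA; SD over 3 lists). Against wild-type these were differences of 4.62, -3.97 and -2.66 percentage points (exact p = 0.1 for each, the smallest possible), and the 9 mutant lists as 1 group differed by -0.669 points (exact p = 0.777, adjusted p = 0.777).

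By score, the excess in mfn2-/- lay below 100, but it was also present among the 780 strongest peaks of each list. There the share was 17.9%, 20.1% and 19.6% in mfn2-/- lists and 13.5%, 12.4% and 13.6% in wild-type lists. These 780 are all the autosomal peaks of mfn2-/- library 2. Since the score grows with depth, a fixed score need not cut all lists at the same place. Below a score of 100, intron members made up 21.0% ± 1.03 of mfn2-/- autosomal peaks and 16.0% ± 0.545 of wild-type ones (SD, n = 3 each). At a score of 100 or more the lists held 7 to 11 intron members in mfn2-/-, 24 to 28 in wild-type, 6 to 12 in vhl-/- lists and 10 to 13 in those of HIF1dPA. Their share there was 9.69% ± 1.59 in mfn2-/- and 9.97% ± 0.841 in wild-type, a difference of -0.276 points, while vhl-/- stood at 6.05% ± 1.55 and HIF1dPA at 7.78% ± 1.74 (over all 4 genotypes, exact permutation p = 0.0409). Peaks assigned to the excluded gene families moved the other way in mfn2-/- lists, at 18.9% ± 3.00 of autosomal peaks compared with 23.2% ± 0.404 in wild-type. With those families left out of the denominator as well, the mfn2-/- difference was 4.65 points and the genotypes still differed (exact permutation p = 0.00013).

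**Figure D1:**
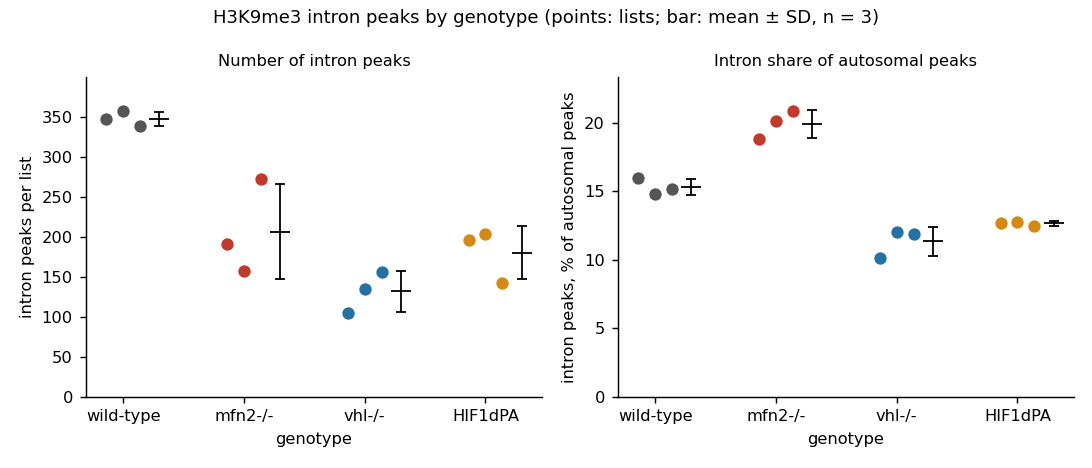
Number of H3K9me3 intron peaks per list (left) and their share of the list's autosomal peaks in percent (right), by genotype. Points are the 12 lists and bars the mean ± SD of 3; every mutant list is below wild-type in number, while in share mfn2-/- lists (18.8% to 20.8%) lie above and vhl-/- and HIF1dPA lists (10.1% to 12.8%) below wild-type.

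Host genes differed in kind as well. Genes known only by a Gm number, a Rik clone name or a -ps (pseudogene) suffix held 33.1%, 28.3% and 31.3% of intron peaks in wild-type lists. They held 15.7%, 19.7% and 15.1% in mfn2-/- lists, 26.7%, 28.1% and 30.1% in vhl-/- lists, and 25.0%, 28.6% and 29.6% in HIF1dPA lists. The mfn2-/- lists were below all 9 others, a pattern seen after the values were known and not tested. With those genes left out, the mfn2-/- intron share was 6.01 points above wild-type, and the vhl-/- and HIF1dPA shares were -2.45 and -1.43 points from it.

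Within genes, peaks lay in the first intron more often than its place among the introns alone would give, and this share did not separate the genotypes. Intron 1 held 782 of 2600 peaks, or 30.1%. If every intron of the annotated transcripts were hit equally often, 19.9% would be expected, a figure that takes no account of the greater length of first introns. Among the 2536 peaks in transcripts with at least 2 introns, 28.3% lay in the first and 18.1% in the last, against 17.9% for equal hits. The first intron share was 28.5%, 29.7% and 31.3% in wild-type lists, and 26.2%, 29.9% and 27.6% in mfn2-/- lists. It was 36.2%, 31.1% and 31.4% in vhl-/- and 34.2%, 31.5% and 27.5% in HIF1dPA lists. These ranges overlapped (exact permutation p = 0.174 across genotypes, adjusted p = 0.283; mutants 0.789 points above wild-type, exact p = 0.7, adjusted p = 0.777). H3K27me3, the Polycomb mark, had a higher first intron share under the same rule, with means of 46.9% ± 3.78 (wild-type), 45.9% ± 1.5 (mfn2-/-), 47.3% ± 0.483 (vhl-/-) and 34.9% ± 6.84 (HIF1dPA; SD over 3 lists), not tested against H3K9me3.

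Intron peaks were narrow and their width hardly varied. The median over all members was 590 bp, with quartiles at 546 and 709 bp and extremes of 209 and 10568 bp. Wild-type list medians ran from 587 to 591 bp, those of mfn2-/- from 573 to 592 bp, those of vhl-/- from 590 to 600 bp and those of HIF1dPA from 588 to 600 bp (over all 4 genotypes, exact permutation p = 0.526, adjusted p = 0.759). The 9 mutant lists differed from wild-type by 1.44 bp (exact p = 0.718, adjusted p = 0.777). Among the 780 strongest autosomal peaks per list, where longer lists keep only their stronger peaks, mutant medians were 131 bp below wild-type (a difference of -131 bp, exact p = 0.00455). First and later introns gave the same width within a list to -1.08 bp on average (exact sign-flip p = 0.646 over 12 lists, adjusted p = 0.777). Over the 12 lists, intron peaks were narrower than intergenic peaks by a small margin, with a mean difference of -5.92 bp (exact sign-flip p = 0.0210, adjusted p = 0.0492). The margin was largest in HIF1dPA lists, where list medians averaged 593.7 bp in introns and 611.7 bp between genes. These means were 589.7 and 589.5 bp in wild-type, 585.7 and 587.5 bp in mfn2-/-, and 594 and 598 bp in vhl-/- lists. With Zfp, Olfr and Vmn genes kept among the intron peaks only, the mean difference from intergenic peaks, which still left them out, was -0.0417 bp (exact p = 1).

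**Figure D2:**
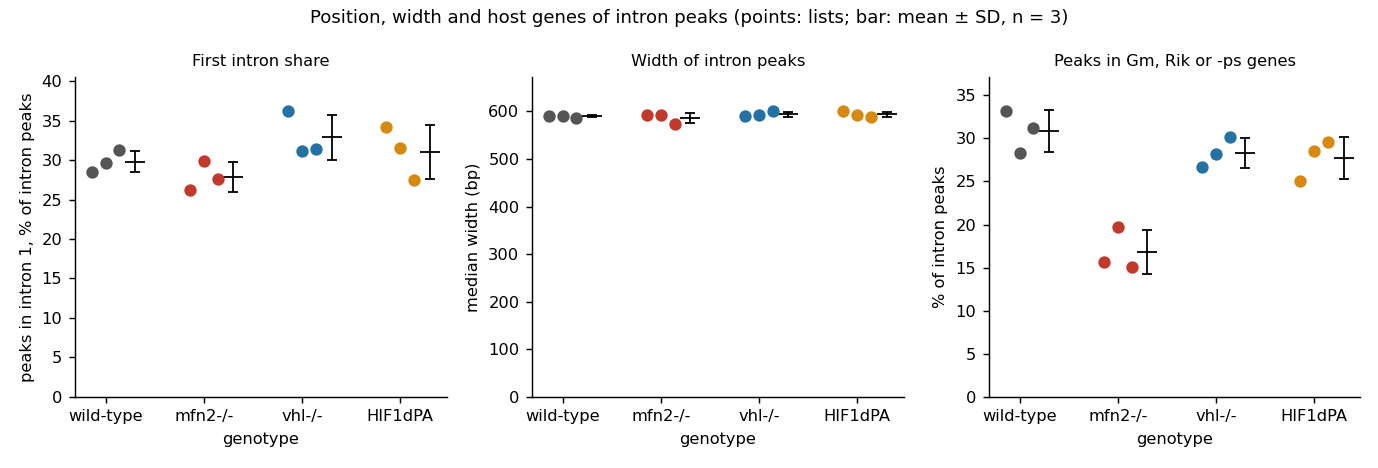
Share of intron peaks in intron 1 (left, percent), median width (middle, bp) and share in genes with Gm, Rik or -ps names (right, percent), by genotype. Points are the 12 lists and bars the mean ± SD of 3; genotypes overlap in the first 2 panels, and in the third mfn2-/- lists (15.1% to 19.7%) lie below the others (25.0% to 33.1%).

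Most intron peaks were seen once. Peaks that overlapped were merged into 1981 regions, of which 1730 (87.3%) were present in a single list and 144 (7.27%) in 2. A further 76 regions were in 3 to 5 lists, 29 in 6 to 11 and 2 in all 12. Over all 11350 merged autosomal H3K9me3 regions, 84.3% were in 1 list and 7.69% in 3 or more, compared with 5.40% of intron regions in 3 or more. These counts are not fully comparable. A list counted for an autosomal region by a peak of any annotation and gene, but for an intron region only by a member peak. Regions in all 12 lists made up 0.308% of all and 0.101% of intron regions. Peaks of recurrent regions were wider and ranked higher: the median width was 579 bp for regions in 1 list, 744 bp in 3 to 5 lists and 890 bp in 6 to 11. The median score percentile within a list was 37.4, 55.3 and 79.0 in the same order. Only 0.694% of the peaks in single-list regions had a score of 100 or more, against 25.0% of those in regions in 3 or more lists. Since a strong peak is more readily called again, rank and recurrence are not independent.

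**Figure D3:**
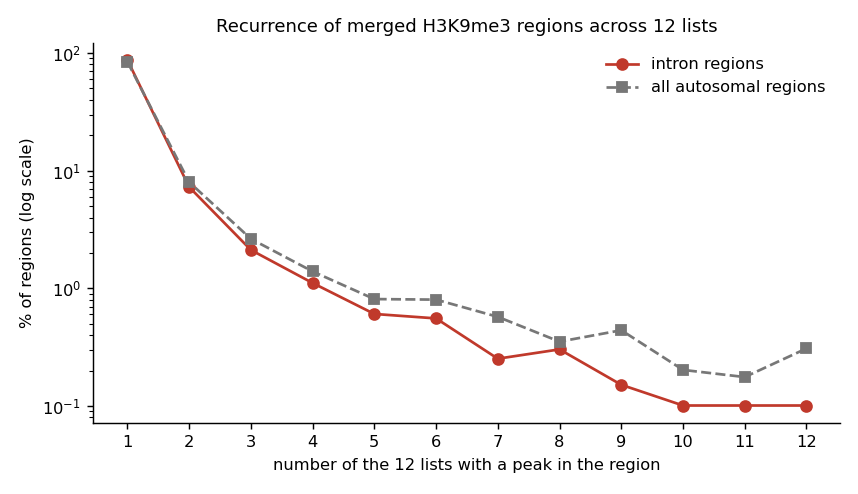
Percent of merged H3K9me3 regions (log scale) by the number of the 12 lists that hold them, for intron regions (red, 1981) and all autosomal regions (grey, 11350). Intron regions count member peaks only, and autosomal regions count peaks of any annotation and gene. Both curves fall steeply from 87.3% and 84.3% in 1 list, and the intron curve ends at 0.101% in 12 lists, against 0.308%.

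On average, lists of the same genotype shared more of their intron peaks than lists of different genotypes. This did not hold for HIF1dPA lists compared with vhl-/- or wild-type lists. The Jaccard index, which divides the sequence common to 2 lists by the sequence in either, was 0.0863 on average in 12 pairs within a genotype and 0.0542 in 54 pairs between genotypes (difference 0.0322, one-sided exact permutation p = 0.000584, adjusted p = 0.0038). Pairs of wild-type lists averaged 0.117, of mfn2-/- lists 0.0790, of vhl-/- lists 0.0881 and of HIF1dPA lists 0.0611. The vhl-/- and HIF1dPA lists averaged 0.0827 with each other, more than the HIF1dPA lists among themselves. The mfn2-/- lists stood apart from both, at 0.0272 with vhl-/- and 0.0296 with HIF1dPA, and at 0.0509 with wild-type. Wild-type lists averaged 0.0687 with vhl-/- and 0.0660 with HIF1dPA, the latter also above the HIF1dPA lists among themselves. The index also moves with list length, which was not adjusted for here.

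The share of a list's intron peaks found again in at least 1 other list of its genotype was 24.2%, 25.2% and 26.5% in wild-type. It was 18.8%, 26.8% and 15.1% in mfn2-/-, 22.9%, 17.0% and 17.3% in vhl-/-, and 14.8%, 16.3% and 16.9% in HIF1dPA. The mutants lay -6.90 points from wild-type (exact permutation p = 0.0227, adjusted p = 0.0492), with mfn2-/- overlapping wild-type. The difference was -0.840, 1.23 and 1.52 points without wild-type library 1, 2 or 3, where each remaining wild-type list has 1 partner fewer (exact permutation p of 0.709 to 0.818). Without HIF1dPA library 1 or 2 it was -7.68 or -8.01 points (exact p = 0.0667 and 0.0606). Across the 4 genotypes the share did not pass the test (exact permutation p = 0.0785, adjusted p = 0.146).

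The 2 intron regions in all 12 lists were among the strongest members in every genotype. One lay in intron 4 of 36 of Cdk5rap2, a centrosomal protein gene, at chr4:70377663-70378772 (mm10, as all coordinates here). It ranked 39, 38 and 38 in wild-type lists and 25, 23 and 14 in mfn2-/- lists, and 24, 29 and 31 in vhl-/- and 49, 47 and 43 in HIF1dPA lists. The other lay in the last intron, 19 of 19, of the protein-coding gene 2210408I21Rik, at chr13:77438442-77439485. It ranked 31, 37 and 33 in wild-type lists and 19, 17 and 11 in mfn2-/- lists, and 19, 25 and 33 in vhl-/- and 40, 29 and 24 in HIF1dPA lists. Ranks in mfn2-/- lists were the lowest numbers at both sites, except that vhl-/- library 1 overlapped them, but mfn2-/- lists are also the shortest on average. An H3K27me3 peak overlapped the 2210408I21Rik region in all 9 wild-type, mfn2-/- and HIF1dPA libraries and in no vhl-/- library.

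Below these came regions in 10 or 11 lists. Intron 22 of Dock2, which encodes a Rac exchange factor of leukocytes, held a region at chr11:34681534-34682478 in all lists but wild-type library 2, with ranks from 56 to 883. Intron 2 of the long noncoding RNA Platr16 held one at chr4:145427071-145431207 in all but vhl-/- library 3, with ranks from 49 to 1142. Intron 3 of Dscam, a neuronal cell adhesion gene, was marked in 10 lists (chr16:96902982-96903859), missing in mfn2-/- library 2 and vhl-/- library 2. Intron 4 of 2610008E11Rik was also marked in 10 (chr10:79072247-79076346), missing in vhl-/- library 2 and HIF1dPA library 2. None of these 4 was absent from a whole genotype. Tdrd1, a Tudor-domain gene of the piRNA pathway, had a region in intron 11 in 8 lists (chr19:56847337-56848510), of all 4 genotypes.

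Counted by gene instead of region, 650 of 1063 genes (61.1%) had an intron peak in 1 list, 215 in 3 or more and 58 in 6 or more. The genes present in all 12 lists were 2210408I21Rik, Cdk5rap2, Platr16 and Gm20474. Lyst, a regulator of lysosome traffic, was in 8 lists and Tcte2, a t-complex gene, in 8. Gm10130 and Gm1976 were in 11 lists and Gm21989 in 10, with no single region in more than 6. The genes with the most separate regions were Gm6605 with 26, C130026I21Rik with 18, Gm20474 with 16, and Gm21989 and Obox3, an oocyte homeobox gene, with 15 each. Genes with Gm, Rik or -ps names were 185 of 1063 (17.4%) but held 686 of 2600 peaks (26.4%). Gene copies of near-identical sequence can share reads, and how such reads were placed is not given in the sources used here. For 68 peaks (2.62%) the intron named in the annotation belongs to another gene than the one assigned.

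A gene recurred in these lists in 2 ways, by peaks at one place or by peaks scattered along its length. Among the 215 genes in 3 or more lists, 81 had a region shared by 3 or more lists, and 87 (40.5%) had no region shared by even 2. The first kind is shown by Cdk5rap2 and Dscam, with 12 and 10 peaks in a single region. The second is shown by Sntg1, which encodes gamma-1-syntrophin and had 11 peaks in 8 lists at 11 separate places, and by Csmd3, with 11 peaks in 6 lists at 11 places. Host genes of the second kind were long: among protein-coding genes with a RefSeq length, the median was 574 kb over the 80 with no shared region and 124 kb over the 64 with a region in 3 or more lists. The median of 18816 autosomal protein-coding genes was 19.6 kb, and that of the 908 with any intron peak 153 kb.

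**Figure D4:**
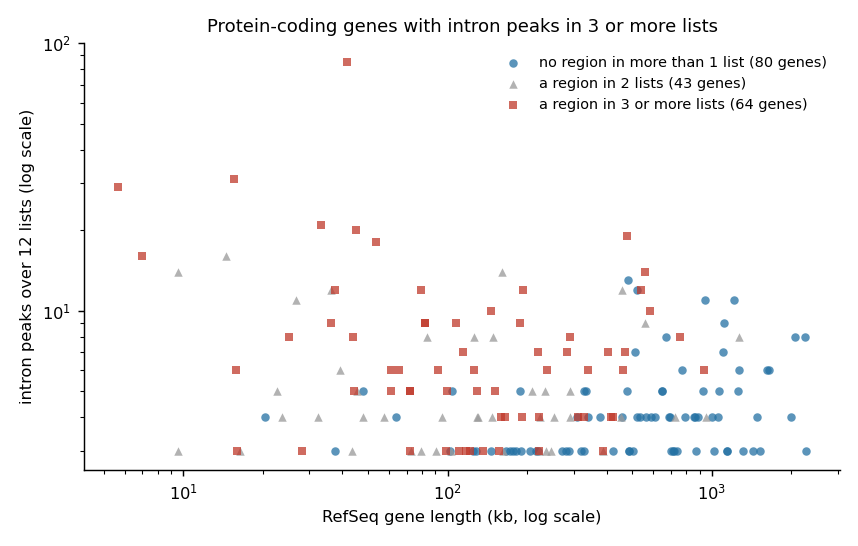
RefSeq gene length in kb (x, log scale) against the number of intron peaks over the 12 lists (y, log scale) for protein-coding genes with peaks in 3 or more lists. Blue circles are the 80 genes with no region in more than 1 list (median 574 kb), grey triangles the 43 with a region in 2 lists (130 kb) and red squares the 64 with a region in 3 or more lists (124 kb).

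Gene lists, chosen with earlier results of these data known, were then read for intron peaks. Of 58 long neuronal and cell adhesion genes, 44 (75.9%) had at least 1 intron peak, compared with 4.83% of all 18816 autosomal protein-coding genes under the same name filter. These genes are long, and of the 44 protein-coding genes at least as long as the median of that list, 1087 kb, 36 (81.8%) had an intron peak. Those 44 include the longer members of the list itself, so the shares are not independent. The 19 members in 3 or more lists carried 104 peaks in 101 regions, and for 18 of them no region was shared by 2 lists. They included Cntnap2, Lrp1b and Csmd3 in 6 lists each and Csmd1 and Fhit in 5. The remaining one was Immp2l, a mitochondrial inner membrane peptidase gene, with a region in intron 6 in all 3 wild-type lists and mfn2-/- library 2 (chr12:41868066-41868905). Peaks in this list made up 3.46%, 4.48% and 4.72% of wild-type intron peaks and 5.76%, 5.73% and 9.93% of mfn2-/- ones. The vhl-/- shares were 7.62%, 7.41% and 3.21% and the HIF1dPA shares 7.14%, 6.40% and 5.63%.

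None of 22 myogenic regulators, 26 genes of the HIF1 pathway and 12 of mitochondrial dynamics had an intron peak in any list. With 4.83% of all protein-coding genes marked, counts of 0 in lists this short are near the background. Of 43 genes of muscle structure and calcium handling, 5 had an intron peak (11.6%, against 4.83% of all protein-coding genes). Their list is of longer genes, with a median of 67.0 kb against 19.6 kb. The ryanodine receptor gene Ryr3 (586 kb) was in 4 lists. The sarcoglycan genes Sgcd (1018 kb) and Sgcz (1144 kb) were in 3 each. None of these named genes had a region shared by 2 lists. Ryr2 had a peak in mfn2-/- library 3 and is named after its value was seen, as are the imprinted genes that follow.

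Of 25 genes of the H3K9 methylation machinery only Atf7ip, a partner of SETDB1, had intron peaks, in 6 lists. Its most shared region, in intron 5 (chr6:136568512-136569192), was in vhl-/- library 1 and HIF1dPA libraries 1 and 2. Of 40 imprinted genes 3 had a peak, Kcnq1, Airn and Trappc9, in 1 list each. These shares, 4.00% and 7.50%, are near the 4.83% of all protein-coding genes. In the Sp100 family of nuclear body proteins, 3 of 4 genes did (75.0%), too few genes to set against that share, and Sp140 was in 3 lists, wild-type 1 and 2 and HIF1dPA 3.

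To ask which intron regions separate the genotypes, regions present in all 3 lists of one side and in none of the other were counted. Intron regions were counted by member peaks only, and the background of all autosomal regions by peaks of any annotation and gene. In all 3 wild-type lists and none of the 9 mutant lists there were 7 intron regions of 1981 (0.353%), against 0.344% of all autosomal regions. The reverse pattern had 0 intron regions, and 0.0176% of all regions. Between mfn2-/- and wild-type, 6 intron regions were found only in mfn2-/- (0.303%, background 0.167%) and 23 only in wild-type (1.16%, background 1.25%). Only vhl-/- held 2 (0.101%, background 0.361%) and only wild-type, against vhl-/-, 13 (0.656%, background 0.722%). For HIF1dPA these counts were 2 (0.101%, background 0.441%) and 14 (0.707%, background 0.74%). The counts of wild-type regions lost were thus close to their backgrounds, and these are shares of regions whose calls depend on list length.

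Against all 3 other genotypes, mfn2-/- had 4 intron regions of its own (0.202%, background 0.0881%), and 3 were absent from it alone (0.151%, background 0.167%). The 4 were 4 of the 10 autosomal regions with this pattern. Neither vhl-/- nor HIF1dPA had an intron region of its own, with a background of 0.00881% for each, and none was absent from either alone (background 0%). The vhl-/- and HIF1dPA lists together held 2 intron regions absent from all wild-type and mfn2-/- lists (0.101%, background 0.185%), and the reverse had 0 (background 0.0617%). This last contrast was added after the data were seen.

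The strongest region found only in mfn2-/- lists was in intron 15 of 34 of Drosha, the nuclear RNase III that begins microRNA processing, at chr15:12872545-12873620. It ranked 34, 21 and 40 in the 3 mfn2-/- lists, with peaks of 973, 986 and 794 bp, and no other list had an H3K9me3 peak of any annotation there. The second was in intron 1 of 8 of Ppp2r2b, a regulatory subunit gene of protein phosphatase 2A, at chr18:42975284-42976575. Its ranks were 78, 43 and 28 and its widths 1202, 1288 and 1203 bp. Both were thus among the 78 strongest autosomal peaks of each mfn2-/- list.

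The other 2 were weaker. Intron 26 of Dop1b held a region at chr16:93788868-93789752 with ranks 782, 95 and 84. Intron 13 of Ttc27, a tetratricopeptide repeat gene, held one at chr17:74814903-74815764 with ranks 436, 251 and 183. Elsewhere Ttc27 had intron peaks in other genotypes too, in 2 wild-type and 2 vhl-/- lists. Against wild-type alone, a region in intron 4 of 2610008E11Rik (chr10:79068943-79070628) was also present in the 3 mfn2-/- lists, with ranks 387, 136 and 1068, and in HIF1dPA library 2.

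Absent from mfn2-/- and present in the other 9 lists were regions in Fbxw4, E030030I06Rik and C130026I21Rik. Fbxw4 encodes an F-box protein of ubiquitin ligases, and its region lay in intron 1 of 8 at chr19:45649615-45650407. It ranked 68, 182 and 104 in wild-type, 76, 128 and 49 in vhl-/-, and 108, 38 and 97 in HIF1dPA lists. The region in the only intron of E030030I06Rik (chr10:22141965-22143542) ranked 32, 69 and 89 in wild-type, 32, 38 and 67 in vhl-/-, and 31, 80 and 151 in HIF1dPA lists. The mfn2-/- lists held no H3K9me3 peak of any annotation at either site, although they held 780 to 1306 autosomal peaks and these regions ranked at 182 or better in the other lists. Only the strength in the other lists can be given here, since coverage below the cutoff was not analysed.

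C130026I21Rik on chromosome 1 showed the same pattern along the gene. It had 85 intron peaks in 18 regions, in all 9 wild-type, vhl-/- and HIF1dPA lists and in no mfn2-/- list. It also held 3 of the 5 widest intron regions in 3 or more lists, at chr1:85067210-85078702, chr1:85121428-85128861 and chr1:85230474-85241209. The first was in all 9 of these lists, and it ranked 259, 220 and 1622 in wild-type, 1036, 164 and 71 in vhl-/-, and 146, 214 and 619 in HIF1dPA lists. Its score of 50.1 in vhl-/- library 1 was near the lowest in the lists. The last was covered by peaks of up to 10568 bp and ranked 58, 113 and 29 in wild-type, 286, 58 and 161 in vhl-/-, and 28 and 50 in HIF1dPA libraries 1 and 3. The gene accounts for 14 of the 29 intron peaks of 3000 bp or more, and Platr16 for 8. RefSeq gives C130026I21Rik a length of 41.6 kb, shorter than the stretch over which peaks were assigned to its intron, so these peaks cannot all lie in the RefSeq gene.

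Other regions in all 3 wild-type lists and no mfn2-/- list recurred in part of the remaining lists. Filip1l, a filamin A interacting protein gene, had a region in intron 1 (chr16:57390942-57392105) that ranked 69, 55 and 136 in wild-type, 497, 110 and 239 in vhl-/-, and 486 in HIF1dPA library 2. Kctd16, an auxiliary subunit gene of GABA-B receptors, had one in its only intron (chr18:40307733-40308708) in 8 lists, with ranks 87, 105 and 276 in wild-type. Tcte2 had one in intron 1 (chr17:13654487-13655551) in 7. In other genes the vhl-/- and HIF1dPA lists held fewer intron peaks. The 9904 bp region in Platr16 (chr4:145432709-145442612) and one in intron 2 of Gm20707 (chr4:147802313-147805964) had intron peaks in all wild-type and mfn2-/- lists. In vhl-/- and HIF1dPA, each region had them in 1 list per genotype. Counting H3K9me3 peaks of any annotation, the Platr16 region was in 10 lists and the Gm20707 region in 8. Gm21847 (chr5:15595906-15604449) had intron peaks over all its regions in 3 wild-type and 3 mfn2-/- lists and in no list of the other genotypes.

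Regions found in wild-type lists alone were of moderate rank. The highest was in intron 6 of the cytochrome P450 pseudogene Cyp2c53-ps (chr19:39259532-39260773), with ranks 222, 239 and 145. The region in intron 2 of Gphn, which encodes the inhibitory synapse scaffold gephyrin, lay at chr12:78350411-78351477 and ranked 358, 477 and 345. The region in intron 3 of Camk1d, a calmodulin-dependent kinase gene, lay at chr2:5378951-5379502 and ranked 330, 396 and 693. Elsewhere in Gphn there were intron peaks in 2 vhl-/- lists and 1 HIF1dPA list, and elsewhere in Camk1d in 1 mfn2-/- list. Regions in 2410018L13Rik (chr12:22989535-22991142; ranks 1381, 145 and 103) and Gm20707 (chr4:147787659-147789785; ranks 613, 302 and 1004) completed the 5 with the highest mean percentile. In mutant lists of 780 to 1588 autosomal peaks, several of these wild-type ranks would be near or past the end of the list. A region in intron 10 of Ranbp3l, a nuclear export factor gene (chr15:9015438-9016487), was in wild-type and mfn2-/- lists only, with ranks 165, 677 and 163 in wild-type and 421 and 63 in mfn2-/- libraries 2 and 3.

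Cpeb4 and Pcca carried the 2 regions that all vhl-/- and HIF1dPA lists shared and no other list had. Cpeb4 encodes a cytoplasmic polyadenylation element-binding protein, and its region was in intron 5 of 9 at chr11:31922226-31923054. It ranked 78, 177 and 60 in vhl-/- and 90, 50 and 266 in HIF1dPA lists. Pcca encodes the alpha subunit of mitochondrial propionyl-CoA carboxylase, and its region was in intron 4 at chr14:122568543-122569580. It ranked 92, 156 and 155 in vhl-/- and 52, 1561 and 172 in HIF1dPA lists, so that in HIF1dPA library 2 it was near the end of the list, at a score of 50.1. No wild-type or mfn2-/- list had an H3K9me3 peak of any annotation over either region.

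**Figure D5:**
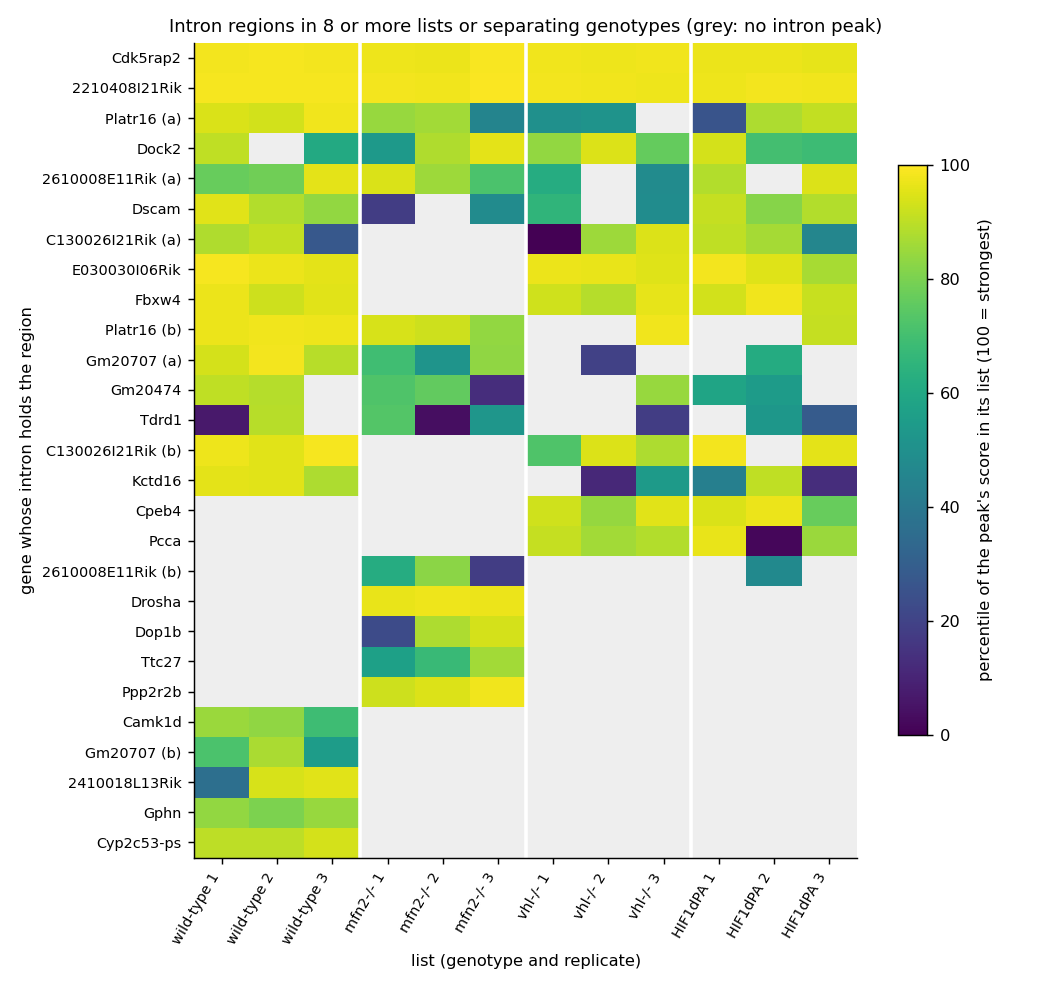
Intron regions in 8 or more lists, or separating genotypes, by list (columns, genotype and replicate); color is the percentile of the peak's score among the list's autosomal peaks (100 is the strongest) and grey means no intron peak. Cdk5rap2 and 2210408I21Rik are strong in all 12 lists, Fbxw4 and E030030I06Rik are grey in mfn2-/- alone, Drosha and Ppp2r2b are strong in mfn2-/- alone, and Cpeb4 and Pcca appear in vhl-/- and HIF1dPA; letters tell apart regions of one gene.

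Overlap with H3K27me3 peaks of the same genotype and replicate was rare, at 21 of 2600 intron peaks (0.808%), and 146 of 17669 autosomal H3K9me3 peaks (0.826%). A looser count took merged regions and H3K27me3 peaks of any list. By it, 6 of 1730 single-list regions had such a peak, and 7 of 29 regions in 6 to 11 lists. Peaks of recurrent regions are also wider, and this share was not computed over all autosomal regions. Besides 2210408I21Rik, the clearest case was Chl1, an L1-family cell adhesion gene chosen after its values were seen. An H3K9me3 peak lay over chr6:103648608-103649437 in all 12 lists, but the annotation called it intron in 4 and exon in 8, so it counted as a member in only 4 lists. An H3K27me3 peak overlapped that region in 11 libraries, all but vhl-/- library 1. Fbxw4 had an H3K27me3 peak in vhl-/- libraries 1 and 3, Pcca in vhl-/- library 2, Filip1l in vhl-/- library 3 and Kctd16 in wild-type libraries 2 and 3. The Tcte2 region at chr17:13654487-13655551 had one in all 3 mfn2-/- libraries and in no other, and the mfn2-/- lists held no H3K9me3 peak there. A site where both antibodies give a peak was not separated here from a site with high coverage of any kind.

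By chromosome, intron members made up from 6.74% of autosomal H3K9me3 peaks on chromosome 13 to 28.3% on chromosome 19. Chromosomes 7, 13 and 17, with 2082, 1974 and 1473 H3K9me3 peaks, and chromosome 4, with 1923, all had intron shares of 10.2% or less. The shares divide by all H3K9me3 peaks of a chromosome, including those at Zfp, Olfr and Vmn genes that the rule leaves out. Many such peaks therefore lower a chromosome's share. Chromosome 12 held the most intron regions in 3 or more lists, 16, followed by 14 on chromosome 5 and 13 on chromosome 1.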

How the data were processed

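The authors deposited 1 annotated peak list for each of 24 libraries (2 marks, 4 genotypes, 3 replicates), so peaks were called per library. The labels' processing notes name BWA 0.7.5, MACS, deepTools 3.5.0 and mm10. The input library of wild-type was not used here. In the deposited lists the score is −10 log10 p from the caller and runs from 50.0 upward. Duplicate handling and use of the input are not given in the sources used here. Sequencing depth is unknown, so no interval or floor was computed.

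Members were chosen by annotation text, and the members and gene lists were chosen with earlier results of these data known. Intron number came from the annotation, and width is end minus start plus 1. Peaks overlapping by at least 1 bp were merged into regions. Genotypes were compared by exact permutation over libraries (across 4 genotypes by the between-group sum of squares; 3 against 9 and 3 against 3 two-sided; Jaccard one-sided), widths within lists by an exact sign-flip test, with Benjamini-Hochberg adjustment over 13 tests. The study describes the ChIP-seq libraries as biological replicates, with mice as the unit, and the labels do not tie single libraries to animals. The p-values therefore rest on the spread between these libraries. No 2 lists were identical. The genes named were the 15 in most lists, up to 5 regions per genotype contrast and direction by mean score percentile, the 5 widest regions in 3 or more lists, the 5 genes with first-intron peaks in most lists, the 3 highest regions per genotype, list genes in 3 or more lists and the 5 genes with most regions. One gene that this rule names is not reported here. Regions in 8 or more lists that fall outside this were chosen after their values were seen. Lengths and biotypes came from RefSeq (GRCm38.p6), which matched 1021 of 1063 genes by symbol (96.0%). No genome sequence was used, so no peak sequence is printed.

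Alternatives were a score of at least 100, the 780 strongest peaks per list (ties kept), families kept, Gm, Rik and -ps genes left out, a 50% overlap, joining within 1000 bp, other position and width definitions, leaving out each library and a replicate block. The replicate numbers come from titles, which name no shared animal or batch. Tests were tested on simulated data. Scripts ran in Python 3.11.15 with pandas 2.3.3 and numpy 2.4.6, and plots were drawn with matplotlib 3.10.9.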

Additional observations from a re-analysis of the deposited data

Results flagged for a closer look

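The intron share of autosomal H3K9me3 peaks differed among the 3 mutant genotypes themselves, which was tested after the data were seen by permuting the labels of the 9 mutant libraries (exact permutation p = 0.00357, the smallest that 280 arrangements allow; adjusted p = 0.0179 over 5 measures). All mfn2-/- lists lay at 18.8% to 20.8% and all vhl-/- and HIF1dPA lists at 10.1% to 12.8%. The other 4 measures did not pass this test: number of intron peaks (exact permutation p = 0.15, adjusted p = 0.292), first intron share (p = 0.175, adjusted p = 0.292), median width (p = 0.471, adjusted p = 0.471) and recurrence within the genotype (p = 0.411, adjusted p = 0.471). Groups of 3 libraries are too small to test single libraries as outliers.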

How the results depend on the processing

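The differences across genotypes in number of intron peaks and in intron share passed 0.05 under every setting listed above, as did the Jaccard difference. With the 780 strongest peaks per list, the ratio of intron peak numbers was 0.956, the width difference of mutants from wild-type was -131 bp, width and recurrence across genotypes had exact permutation p of 0.00597 and 0.00584, and the intron minus intergenic width was -21.0 bp (exact sign-flip p = 0.146). That setting takes deeper cuts from longer lists. With Zfp, Olfr and Vmn genes kept, first introns were 10.9 bp wider than later ones (exact p = 0.0449). The difference from intergenic peaks, which still left those genes out, was -0.0417 bp. The recurrence difference of -6.90 points was -7.54 at a score of at least 100, -4.88 without Gm, Rik and -ps genes and -3.60 at 50% overlap, none past 0.05 (exact permutation p = 0.286, 0.05 and 0.182). With the 780 strongest peaks per list, by contrast, all wild-type shares (30.5% to 41.2%) lay above all mutant shares (17.9% to 26.4%). Leaving out 1 library, the recurrence difference ran from -9.46 to 1.52 points, and its p across genotypes from 6.49e-05 to 0.575. The cause was not tested, except that leaving out a list removes a partner of its genotype.

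With the replicate block, genotypes differed in intron share (exact permutation p = 0.00174), number (p = 0.0226) and Jaccard index (p = 0.00521), and the recurrence difference had p = 0.0469. The block changed no call. Same-numbered libraries of different genotypes deviated with correlations of -0.0117 to 0.0263 over regions (mean 0.00748). Those with different numbers had correlations of -0.0368 to 0.0210 (mean -0.00375). This difference was not tested, and most regions were in a single list, so it cannot settle whether the numbers pair libraries.

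Counts of separating regions fell with stricter rules. At a score of at least 100, 3 regions were in wild-type only, 2 in mfn2-/- only (against wild-type and against all others), 8 were absent from mfn2-/-, 4 from vhl-/- and 4 from HIF1dPA, and 0 were in vhl-/- only, in HIF1dPA only, in both of these only, or absent from mfn2-/- alone. With 780 peaks the counts were 3, 3, 14, 6 and 6, with 1 in HIF1dPA only and 1 in both. With families kept, 12 were in wild-type only, 4 in vhl-/- only, 4 in HIF1dPA only and 23 absent from vhl-/-. Without Gm, Rik and -ps genes, 2 were in wild-type only, 10 absent from mfn2-/-, 7 from vhl-/-, 6 from HIF1dPA and 1 from mfn2-/- alone. Counting any H3K9me3 peak as presence, a rule added after the data were seen, 5 were absent from mfn2-/- alone and 1 was in wild-type and mfn2-/- only. Without 1 library, which loosens the rule, counts ran from 7 to 24 for wild-type only, 6 to 12 for mfn2-/- only, 23 to 47, 13 to 36 and 14 to 35 for absence from mfn2-/-, vhl-/- and HIF1dPA, 2 to 4 for vhl-/- only and 2 to 6 for HIF1dPA only. Against all other genotypes they ran from 4 to 9 for mfn2-/-, 3 to 4 for absence from it, 0 to 2 for vhl-/- and 0 to 3 for HIF1dPA. Presence in wild-type and mfn2-/- only ran from 0 to 2. Depth, which sets how many weak intron peaks are called, is unknown.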
